A study of Mus musculus with 4 samples.

Results

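Prostaglandins and leukotrienes are lipid messengers made from arachidonic acid, and 10 genes of their synthesis and reception were followed in group 2 innate lymphoid cells (ILC2s) of the mouse colon. They were taken by symbol from the deposited table of 27179 genes, and all 10 were found in it. Of these, 6 act in synthesis (Ptgs1, Ptgs2, Hpgds, Alox5, Alox5ap and Ltc4s) and 4 are receptors (Ptger2, Ptger4, Ptgir and Cysltr1). The RNA was from ILC2s sorted from colons of C57BL/6J mice. A control diet was given to 2 mice and a high-fiber diet to the other 2, and each library came from 1 mouse. Strain, tissue and library kit were shared by both diets. The type of fiber, how long it was fed, the sort gates and the age and sex of the mice are not in the labels. Where 2 values follow each other for a diet, the first is from its library 1 and the second from its library 2.

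In the prostanoid branch, a cyclooxygenase turns arachidonic acid into prostaglandin H2, from which terminal synthases make prostaglandin D2, prostaglandin E2, prostacyclin and thromboxane. In the leukotriene branch, 5-lipoxygenase and its activating protein make leukotriene A4, which leukotriene C4 synthase couples to glutathione and leukotriene A4 hydrolase turns into leukotriene B4. In ILC2s, prostaglandin D2 and the cysteinyl leukotrienes are known as activating signals, whereas prostaglandin E2 and prostacyclin, acting through receptors that raise cyclic AMP, are known as restraining ones.

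Library totals were 20253987 to 30406730 counts, and the library numbered 1 was the deeper one on both diets. Counts were scaled to CPM, the counts of a gene over the scaled total of its library in units of 1e+06. Levels of the 10 genes were compared with each other as CPM per kb of exon. Differences between diets were given as log2 fold changes, positive where higher on the high-fiber diet. Leading or most abundant genes of other lists were ranked by mean CPM without regard to length, and their order per kb can differ. All 14 ILC2 markers looked up had counts in every library, led by Id2 (3509 to 5074 CPM), Il5 (2559 to 5889 CPM) and Klrg1 (1197 to 1580 CPM). Among markers of other cells, neutrophil genes (Camp alone with counts) summed to at most 0.0476 CPM and eosinophil genes to at most 1.96 CPM per library. Stromal markers, led by Pecam1, Dcn and Col3a1, summed to 42.0 to 64.5 CPM per library. Epithelial and tuft cell markers, led by Epcam, Avil and Krt18, summed to 25.2 to 37.3 CPM per library. Plasma cell and macrophage transcripts were present and differed between libraries. B and plasma cell markers (8 of 8 with counts, led by Igkc, Igha and Jchain) summed to 156 and 39.1 CPM in the control mice and to 342 and 1226 CPM in the fiber-fed mice. Macrophage and monocyte markers (10 of 10 with counts, led by Lyz2, C1qc and C1qb) summed to 60.4, 142, 129 and 177 CPM in the same order. In bulk RNA, fewer cells of a type and less RNA per cell cannot be told apart.

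Per kb of exon, receptors stood above synthesis genes in every library. The 4 receptors summed to 117 and 114 CPM per kb in the control mice and to 118 and 74.1 CPM per kb in the fiber-fed mice. The 6 synthesis genes summed to 39.4 and 23.7 CPM per kb on the control diet and to 46.9 and 34.2 CPM per kb on the high-fiber diet. The ratio of receptors to synthesis genes was therefore 2.95 and 4.82 on the control diet and 2.51 and 2.16 on the high-fiber diet. Each high-fiber ratio was below each control ratio, and the difference was not tested. Ptgs2 made up 70.9% and 43.2% of the synthesis sum in the control mice and 81.5% and 79.0% in the fiber-fed mice. Without Ptgs2 the synthesis sum was 11.5 and 13.5 CPM per kb on the control diet and 8.68 and 7.17 CPM per kb on the high-fiber diet. The ratio of receptors to the remaining synthesis genes was then 10.2 and 8.49 on the control diet and 13.6 and 10.3 on the high-fiber diet. Control library 1 and high-fiber library 2 were nearly equal, so the diets were not clearly apart. This difference was not tested either.

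On the control diet the order of mean levels per kb was Cysltr1, Ptgir, Ptger4, Ptgs2, Alox5, Ptger2, Hpgds, Ptgs1, Alox5ap and Ltc4s. Ranges of neighbours overlapped between Alox5 and Ptger2, between Ptger2 and Hpgds, between Ptgs1 and Alox5ap and between Alox5ap and Ltc4s. On the high-fiber diet the order was Ptgir, Ptgs2, Cysltr1, Ptger4, Ptger2, Alox5, Hpgds, Ptgs1, Ltc4s and Alox5ap. There only Cysltr1 and Ptger4, Ptger4 and Ptger2, and Ptger2 and Alox5 were neighbours with separate ranges. With the length of the longest single transcript in place of all exons, Ptger4 led in both control libraries. Among 13349 genes with counts and a known exon length, Cysltr1 lay between the 86.2 and 90.7 percentile of level per kb over the 4 libraries. Ltc4s lay between the 6.48 and 27.8 percentile.

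**Figure D1:**
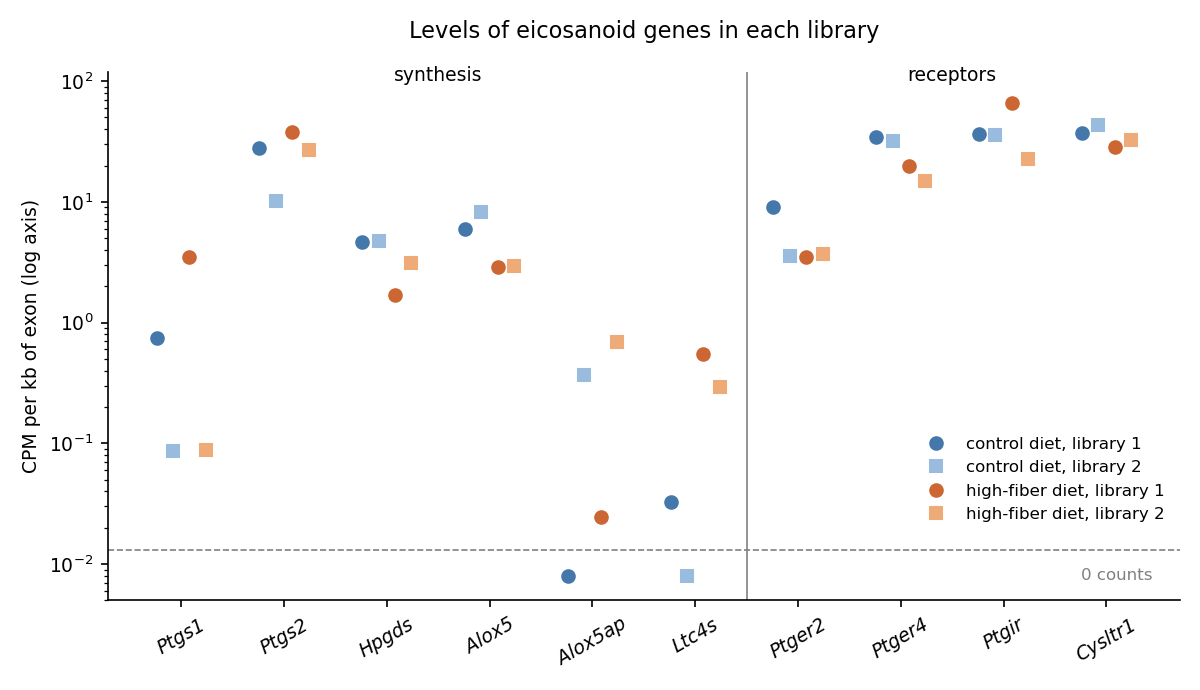
Level of each gene in each of the 4 libraries in CPM per kb of exon, on a log axis. Circles are library 1 and squares library 2 of each diet, blue for the control and orange for the high-fiber diet, and points under the dashed line had 0 counts. Ptgs2 and 3 of the 4 receptors lie above 10 CPM per kb in every library, whereas Alox5ap and Ltc4s lie below 1 in every library.

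Mice on the high-fiber diet were compared with control mice. Lower values on the high-fiber diet were seen for Ptger4, which encodes the prostaglandin E2 receptor EP4, and for Alox5, which encodes 5-lipoxygenase. The synthase gene Hpgds and the receptor gene Cysltr1 were also below each control library in each high-fiber library. None of the 4 passed the test across all genes. Of the 10 genes, 9 entered edgeR's quasi-likelihood test over 11841 genes. By that test 0 of 9 had a Benjamini-Hochberg adjusted p under 0.05, against 0.0338% of all genes tested. DESeq2 also called 0, against 1.88% of all genes it tested, and limma-voom called 0. At an unadjusted p under 0.05, 2 of 9 were lower (Alox5 and Ptger4), against 4.1% of all genes tested in that direction and 8.8% in either. None of the 9 was higher at that level, against 4.7%. Groups did not overlap for 4 of the 9, each of them lower on the high-fiber diet, against 19.6% of all genes tested in that direction and 38.2% in either. The median log2 fold change was -0.39 over the 9 genes and -0.016 over all genes tested. Ptgs1, Ptgs2, Alox5ap and Ptgir had positive fold changes. The median was 0.76 over the 5 synthesis genes tested, which is the Ptgs2 value, and -0.62 over the 4 receptors. Of these synthesis genes Alox5 and Hpgds had negative fold changes. Ptgs1 and Alox5ap, and Ptgir and Ptger2 among the receptors, changed sign when a library was left out. Of 8 T cell markers 6 had counts (Cd8a and Cd5 at 0), led by Trac, Themis and Cd3e, and their sum was lower in each high-fiber library than in each control library. The list summed to 43.2 and 42.3 CPM in control mice and 11.8 and 22.5 CPM in fiber-fed mice. Of its 5 tested genes 2, Themis and Cd3e, did not overlap between diets, against 19.6% of all genes tested in that direction. Trac, Cd3d and Cd6 overlapped, and Cd4 had 12 counts in high-fiber library 1 alone. All 5 had negative fold changes (median -1.14), and 0 passed the adjusted threshold by edgeR. At an unadjusted p under 0.05 by edgeR 1 was lower, against 4.1% of all genes tested. DESeq2 called 1 lower, against 1.88% of all genes it tested in either direction. The part of T cell RNA in the lower values of Ptger4, Alox5, Hpgds and Cysltr1 was not tested.

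**Figure D2:**
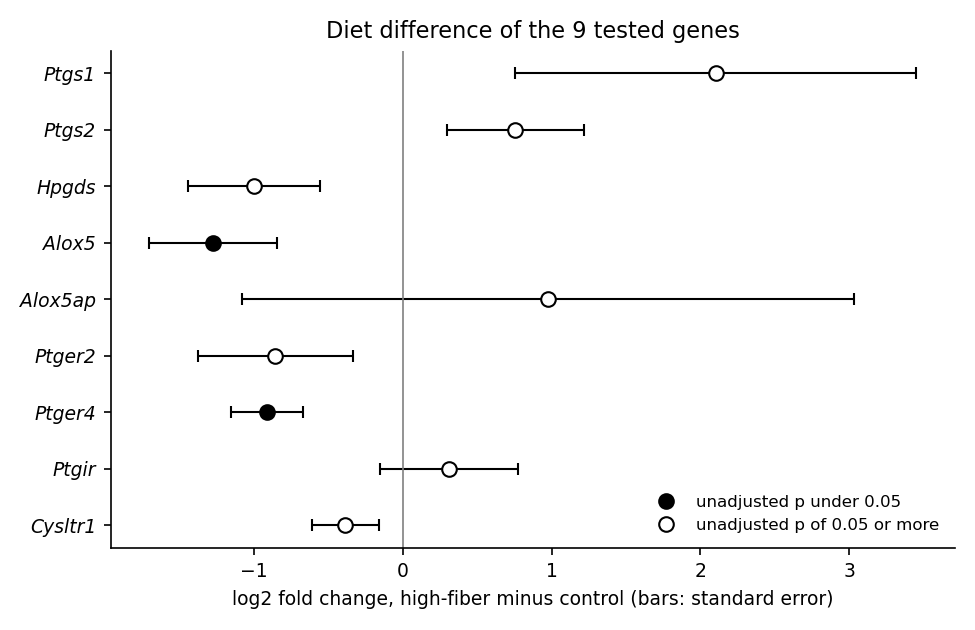
Log2 fold change of each of the 9 tested genes (high-fiber minus control, 2 mice per diet), with bars of 1 standard error from edgeR. Filled points, Alox5 at -1.28 and Ptger4 at -0.92, have an unadjusted p under 0.05, and the widest bars belong to Ptgs1 and Alox5ap.

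Promoters are shown for Ptgs2, the most abundant synthesis gene, and for Alox5 and Ptger4, the genes of smallest p, from the RefSeq table of GRCm38.p6, which held 8 of the 10 genes. Each runs in the direction of transcription from 250 bases before the annotated start through the first 30 bases of the transcript. Both strands were searched for the GC box GGGCGG, the AP-1 motif TGANTCA, the cyclic AMP response element core TGACGT, the E-box CACGTG, the EGR motif GCGNGGGCG and the C/EBP motif TTNNGNAA, and capitals mark every match. The Ptgs2 promoter lies at chr1:150099781-150100060 on the plus strand, the Alox5 promoter at chr6:116461149-116461428 and the Ptger4 promoter at chr15:5244158-5244437, both on the minus strand.
Ptgs2: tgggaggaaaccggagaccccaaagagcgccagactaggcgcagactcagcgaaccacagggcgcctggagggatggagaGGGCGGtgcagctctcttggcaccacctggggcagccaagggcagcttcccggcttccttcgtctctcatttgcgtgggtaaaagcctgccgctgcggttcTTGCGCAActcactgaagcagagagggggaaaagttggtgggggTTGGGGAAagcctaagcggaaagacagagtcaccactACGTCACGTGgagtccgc
Alox5: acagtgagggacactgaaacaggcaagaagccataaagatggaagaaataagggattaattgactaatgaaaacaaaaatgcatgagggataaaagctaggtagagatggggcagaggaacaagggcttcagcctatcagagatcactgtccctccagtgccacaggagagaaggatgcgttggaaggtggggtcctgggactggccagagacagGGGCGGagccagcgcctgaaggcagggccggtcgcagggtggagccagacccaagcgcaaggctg
Ptger4: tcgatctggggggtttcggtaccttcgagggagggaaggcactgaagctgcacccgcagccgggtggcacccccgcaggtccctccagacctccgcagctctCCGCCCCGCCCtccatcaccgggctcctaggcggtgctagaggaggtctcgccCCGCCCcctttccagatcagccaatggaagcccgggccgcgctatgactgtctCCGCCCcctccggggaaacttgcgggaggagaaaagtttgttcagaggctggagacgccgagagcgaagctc
Counted from the start as +1, the Ptger4 window holds 4 GC boxes, beginning at -148, -143, -95 and -42, of which the first pair shares 1 base. The Alox5 window holds 1, beginning at -35. Ptgs2 holds a GC box at -170, C/EBP matches at -69 and -25, and a cyclic AMP response element core at 13 that overlaps an E-box at 17. GC boxes are common, with a match in 34.7% of all 32851 promoters of this length. The C/EBP motif had a match in 39.3%, the cyclic AMP response element core in 7.26% and the E-box in 6.79%. Neither the AP-1 motif (7.46% of all promoters) nor the EGR motif (5.30%) occurs in these 3 windows. A match describes the letters only.

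Ptgs2 (NCBI gene 19225, chr1:150100031-150108234 in GRCm38) encodes cyclooxygenase 2, the inducible form that many cells switch on with other early genes after stimulation. It stood at 128 and 47.0 CPM in the control mice and at 175 and 124 CPM in the fiber-fed mice. Control library 2 was the low one, and the groups overlapped, since high-fiber library 2 lay below control library 1. Means were 87.6 ± 57.4 CPM in control mice and 150 ± 36.2 CPM in fiber-fed mice (SD, n = 2 each). This gave a log2 fold change of 0.76 ± 0.46 (SE), with an adjusted p of 0.726 by edgeR. It depended on the control libraries, with 0.22 without control library 2 and 1.68 without control library 1.

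Immediate early genes, among them members of the AP-1, EGR and NR4A families, were looked up because Ptgs2 belongs to that response, and most had negative fold changes. Of 18 tested, 17 were negative and 11 were lower at an unadjusted p under 0.05, against 4.1% of all genes tested, with a median of -0.79. By edgeR 0 of 18 passed the adjusted threshold, whereas DESeq2 called 8 lower, against 1.88% of the genes it tested called in either direction. Egr1 encodes a zinc finger factor and had the smallest adjusted p of the list (0.212), with a log2 fold change of -2.10 ± 0.27. The most abundant early genes were Junb (-0.83), Dusp1 (-0.50) and Fos (-1.16). The list was chosen with its direction known from earlier results of these libraries. The difference between Ptgs2 and this list was not tested.

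**Figure D3:**
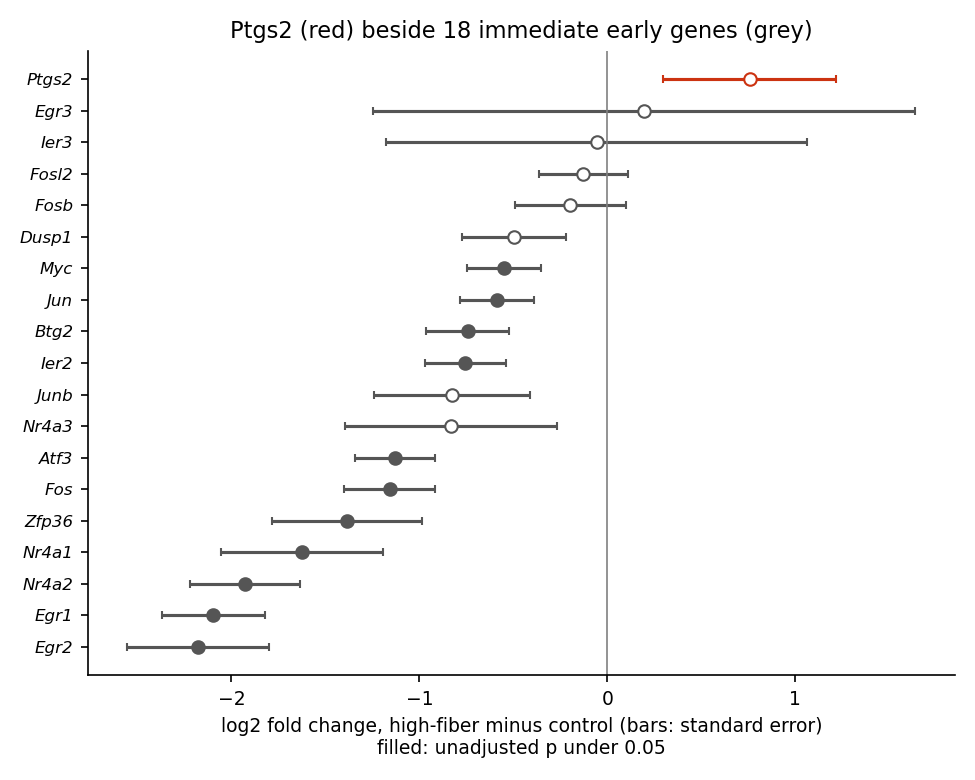
Log2 fold change (high-fiber minus control, bars of 1 standard error) of Ptgs2, in red, and of 18 immediate early genes, in grey, ordered by value. Filled points have an unadjusted p under 0.05. Ptgs2 at 0.76 is the highest point, and 17 of the 18 early genes lie below 0.

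Ptgs1 (NCBI gene 19224, chr2:36216742-36258593) encodes cyclooxygenase 1, the constitutive form. It had 87 and 7 counts in the control mice and 395 and 7 counts in the fiber-fed mice, or 2.88, 0.334, 13.7 and 0.344 CPM. The libraries numbered 1 were high and those numbered 2 low on both diets, so the groups overlapped, and the highest library stood 41.0-fold above the lowest. The log2 fold change of 2.10 ± 1.35 (adjusted p = 0.742, edgeR) turned to -2.36 without high-fiber library 1. Per kb, Ptgs2 exceeded Ptgs1 in every library, by 37.7-fold and 119-fold in the control mice and by 10.9-fold and 306-fold in the fiber-fed mice.

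Hpgds (NCBI gene 54486, chr6:65117293-65144981) encodes hematopoietic prostaglandin D synthase, the enzyme that makes prostaglandin D2 in leukocytes. It stood at 30.1 and 30.4 CPM in the control mice and at 10.98 and 20.2 CPM in the fiber-fed mice. Both high-fiber libraries were below both control libraries, which lay close together. The log2 fold change was -0.9999 ± 0.44 (unadjusted p = 0.0612, adjusted p = 0.605, edgeR), and it ranged from -0.56 without high-fiber library 1 to -1.47 without high-fiber library 2. Mast cells also express Hpgds, and of their granule proteases Mcpt1, Mcpt2, Mcpt4, Cma1, Tpsb2 and Tpsab1 had 0 counts in all 4 libraries. The granule protease gene Cpa3 had 40 and 21 counts in the control mice and 0 counts in both fiber-fed mice (unadjusted p = 0.0111, adjusted p = 0.447, edgeR), lower on the same diet as Hpgds. DESeq2 did not call it (DESeq2 adjusted p = 0.407). Cpa3 entered the test only through the control libraries, where it is high, so its p is not support for a change of mast cell RNA. Of the 11 mast cell markers, 7 were at 0 (Ms4a2 with these), and the list summed to 70.6 and 72.7 CPM in control mice and 78.9 and 61.7 CPM in fiber-fed mice. Hdc, the histidine decarboxylase gene, gave 61.7 to 77.8 CPM of that sum, with Fcer1a (at most 1.13 CPM) and Cpa3 (at most 1.32 CPM) next. The part of mast cell RNA in the Hpgds values was not tested.

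Receptors for prostaglandin D2 were at or near 0 beside Hpgds. Ptgdr2, which encodes the receptor CRTH2, had 0 counts in all 4 libraries, and Ptgdr, which encodes DP1, had 1 count in control library 1 and 0 in the others. A count of 0 allows up to 3 counts, which is 0.0993 to 0.147 CPM in these libraries, for counting error only. The second prostaglandin D synthase gene, Ptgds, also had 0 counts throughout.

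Of the other terminal synthase genes on the prostanoid list, 6 of 9 were tested and 0 passed by edgeR in either direction. At an unadjusted p under 0.05 by edgeR, 1 (Ptges) was lower, against 4.1% of all genes tested. The median log2 fold change was -0.22. Ptges encodes the inducible prostaglandin E synthase and had 61 and 17 counts in the control mice and 0 counts in both high-fiber libraries. Against 3 counts over both high-fiber libraries it was at least 25.0-fold lower there (adjusted p = 0.456, edgeR), and at least 13.3-fold lower without control library 1. These bounds leave out the spread between mice. Ptges entered the test only through the control libraries. By mean CPM the most abundant members were Akr1b3, an aldose reductase that can make prostaglandin F2 alpha, Cbr1, a carbonyl reductase, and Ptges2. Akr1b3 stood at 31.3 ± 3.04 and 39.6 ± 2.06 CPM in control and fiber-fed mice, and Cbr1 at 33.0 ± 0.579 and 25.9 ± 8.59 CPM (SD, n = 2 each). Ptges2, at 33.6 ± 4.49 and 18.3 ± 4.09 CPM, had a log2 fold change of -0.90 ± 0.39 (adjusted p = 0.590, edgeR). The prostacyclin synthase gene Ptgis had 0 counts throughout.

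Alox5 (NCBI gene 11689, chr6:116410071-116461178) stood at 24.6 and 34.02 CPM in the control mice and at 11.8 and 12.2 CPM in the fiber-fed mice. Both high-fiber libraries lay below both control libraries and close to each other. Means were 29.3 ± 6.64 and 11.99 ± 0.254 CPM (SD, n = 2 each). Its log2 fold change was -1.28 ± 0.43, with an unadjusted p of 0.0229 and an adjusted p of 0.465 by edgeR. It stayed negative in each fit without 1 library, from -1.504 to -1.04. A noncoding gene, Gm38880, overlaps Alox5 and has no row in the table, so reads from it cannot be told apart.

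The partners of 5-lipoxygenase were near the limit of detection. Alox5ap (NCBI gene 11690, chr5:149265004-149288153), which encodes the activating protein that presents arachidonic acid to 5-lipoxygenase, had 0 and 11 counts in the control mice and 1 and 20 counts in the fiber-fed mice. The libraries numbered 2 held nearly all of its counts on both diets. Pooled by diet this was 11 against 21 counts, or 1.98 times as many per scaled count on the high-fiber diet (95% exact binomial interval 0.915 to 4.56), which leaves out the spread between mice. The fitted log2 fold change was 0.97 ± 2.06, and it turned to -0.28 without control library 1. Alox5ap is abundant in macrophages, whose markers summed lowest in control library 1 (60.4 CPM), where Alox5ap had 0 counts, and highest in high-fiber library 2 (177 CPM), where it had most. In between, control library 2 (142 CPM) had 11 counts, whereas high-fiber library 1, with a similar sum (129 CPM), had 1. The part of macrophage RNA in the result was not tested.

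Ltc4s (NCBI gene 17001, chr11:50236461-50238532), which encodes leukotriene C4 synthase, had 1 and 0 counts in the control mice and 16 and 6 counts in the fiber-fed mice. It was the 1 gene of the 10 that did not pass the filter on low counts and so was not tested. Pooled by diet, 1 against 22 counts gave a ratio of 22.9 (95% exact binomial interval 3.70 to 944), which leaves out the spread between mice. Eosinophils are rich in this enzyme, and of 8 eosinophil markers 5 had 0 counts throughout (Siglecf, Epx, Ear1, Ear6 and Il5ra). The list, led by Prg2, Ear2 and Ccr3, summed to 0.0331 and 0.0 CPM in the control mice and to 0.173 and 1.96 CPM in the fiber-fed mice. Of 5 basophil markers 3 had 0 counts throughout (Mcpt8, Prss34 and Ms4a2). The basophil marker Cd200r3 had 14 and 1 counts in the control mice and 72 and 28 counts in the fiber-fed mice. Fcer1a, on the same list, had 34 and 20 counts in the control mice and 32 and 0 counts in the fiber-fed mice. The part of eosinophil or basophil RNA in the Ltc4s counts was not tested.

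By mean CPM, other leukotriene and lipoxygenase genes are led by Cotl1, an actin-binding partner of 5-lipoxygenase, Lta4h, which makes leukotriene B4, and Ggt5, which trims leukotriene C4. Of 14 on this list 7 were tested and 0 passed by edgeR in either direction. DESeq2 called 1, Ggt1, against 1.88% of all genes it tested. At an unadjusted p under 0.05 by edgeR, 1 was lower (Ggt1), against 4.1% of all genes tested. The median log2 fold change was -0.18. Lta4h stood at 212 and 235 CPM in the control mice and at 186 and 157 CPM in the fiber-fed mice (-0.38 ± 0.22). Cotl1 was at 368 ± 42.4 and 323 ± 155 CPM and Ggt5 at 17.6 ± 3.94 and 16.01 ± 13.9 CPM in control and fiber-fed mice. Ggt1, a gamma-glutamyl transferase, had 26 and 219 counts in the control libraries and 0 in both high-fiber libraries, at least 78.6-fold lower against 3 counts over both (adjusted p = 0.447, edgeR). DESeq2 called Ggt1 lower (DESeq2 adjusted p = 0.00303), whereas limma-voom did not (limma-voom adjusted p = 0.733). Its control counts came mostly from control library 2. Without that library the bound was at least 14.1-fold lower, and without control library 1 it was at least 171-fold. These bounds leave out the spread between mice. Ggt1 passed the filter through the control group. Mgst2, a relative of Ltc4s that can also make leukotriene C4, was present in every library at 11.98 to 18.2 CPM. The lipoxygenase genes Alox12, Alox12b and Alox12e had 0 counts throughout.

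**Figure D4:**
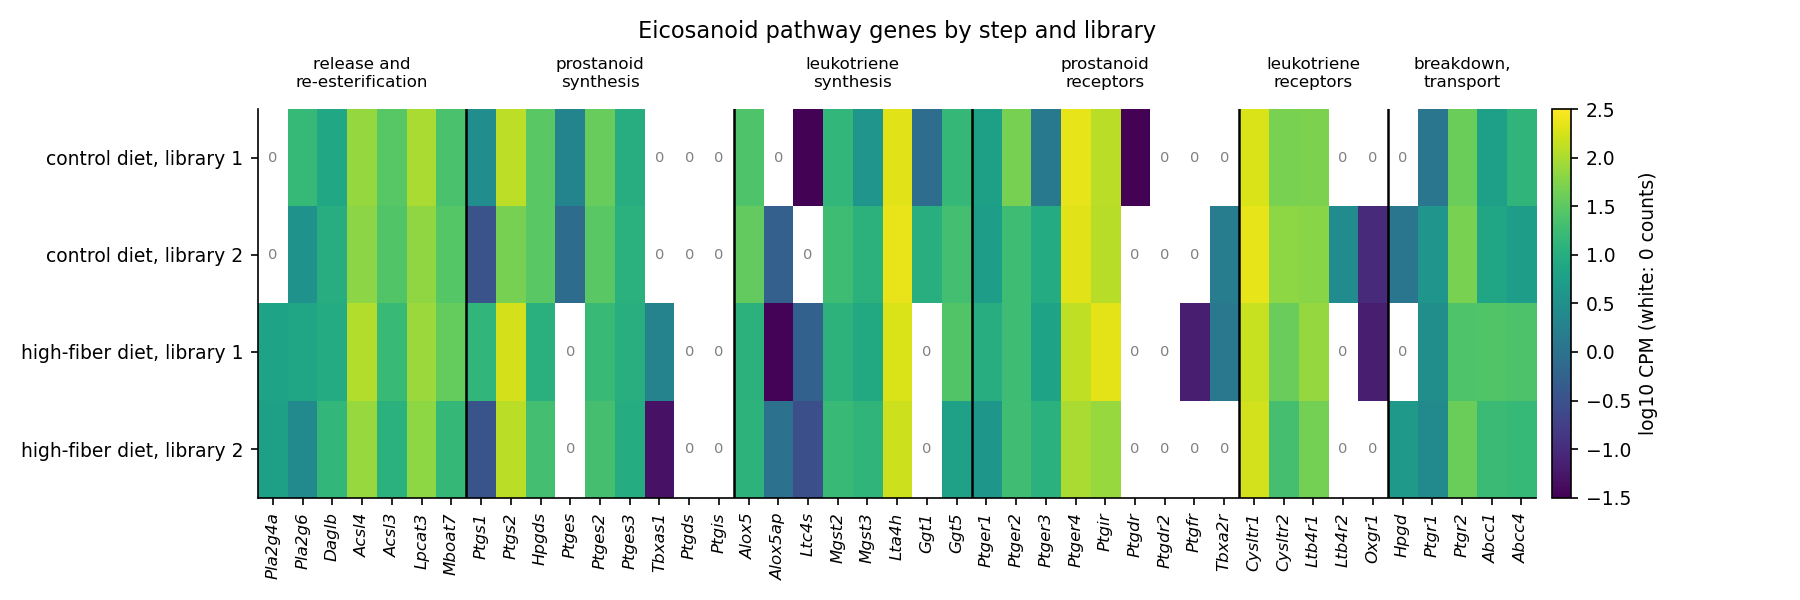
Level of 43 eicosanoid genes (columns, by step of the pathway) in each of the 4 libraries (rows), as log10 CPM in color, with white cells marked 0 for genes without counts. Pla2g4a has counts on the high-fiber diet alone, Ptges and Ggt1 on the control diet alone, and Ptgdr2, Ptgds and Ptgis have none.

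Upstream of both branches, Pla2g4a encodes cytosolic phospholipase A2, which frees arachidonic acid from membranes. It had 0 counts in both control libraries and 192 and 122 counts in the fiber-fed mice (6.65 and 5.99 CPM). Against 3 counts over both control libraries it was at least 109-fold higher on the high-fiber diet (adjusted p = 0.447, edgeR). This bound leaves out the spread between mice. DESeq2 called Pla2g4a higher (DESeq2 adjusted p = 0.000116), against 1.88% of all genes it tested called in either direction. By limma-voom it was not called (limma-voom adjusted p = 0.701). It entered the test only through the high-fiber libraries. The B and plasma cell markers given above also summed higher in each high-fiber library (342 and 1226 CPM) than in each control library (156 and 39.1 CPM). Within the high-fiber diet these markers were higher in library 2, whereas Pla2g4a was not. Their part in the Pla2g4a counts was not tested. Of 13 genes of arachidonate release and re-esterification, 8 were tested and 0 passed by edgeR. At an unadjusted p under 0.05 by edgeR, Pla2g4a alone was higher, against 4.7% of all genes tested, and 0 were lower. The median was 0.21. By mean CPM the most abundant were Acsl4, which activates arachidonic acid for storage (68.8 ± 8.06 and 92.3 ± 22.3 CPM), Lpcat3 (84.1 ± 22.2 and 72.5 ± 7.58 CPM) and Mboat7 (25.4 ± 3.97 and 24.9 ± 14.6 CPM). Of these, Lpcat3 and Mboat7 put arachidonic acid back into phospholipids.

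Ptger4 (NCBI gene 19219, chr15:5233399-5244187) encodes EP4, a prostaglandin E2 receptor that couples to the stimulatory G protein. It stood at 228 and 212 CPM in the control mice and at 133 and 99.8 CPM in the fiber-fed mice. Both high-fiber libraries lay below both control libraries. Means were 220 ± 11.9 and 116 ± 23.2 CPM (SD, n = 2 each). EP4 transcripts had a log2 fold change of -0.92 ± 0.24, with an unadjusted p of 0.00767 and an adjusted p of 0.447 by edgeR and of 0.0543 by DESeq2. Over the alternatives tried it lay between -1.12 and -0.74.

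Ptger2 (NCBI gene 19217, chr14:44988111-45003820) encodes EP2, which couples to the same G protein. It stood at 47.2 and 18.3 CPM in the control mice and at 18.2 and 19.1 CPM in the fiber-fed mice. Only control library 1 was high, and the other 3 libraries lay close together. The log2 fold change of -0.86 ± 0.52 (adjusted p = 0.726, edgeR) became 0.021 without control library 1. Per kb, Ptger4 exceeded Ptger2 by 3.78-fold to 9.01-fold in the 4 libraries.

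Ptgir (NCBI gene 19222, chr7:16906490-16910905) encodes the prostacyclin receptor, which also couples to the stimulatory G protein. It stood at 121 and 119 CPM in the control mice and at 219 and 75.5 CPM in the fiber-fed mice. The high-fiber libraries lay on either side of the control libraries, which were nearly equal. For Ptgir the log2 fold change of 0.31 ± 0.46 (adjusted p = 0.911, edgeR) turned to -0.64 without high-fiber library 1 and was 0.86 without high-fiber library 2. Ptgir took 55.8% of the summed receptor level per kb in high-fiber library 1 and 30.6% to 31.2% in the other 3 libraries. Per kb it stood 1.05-fold and 1.12-fold above Ptger4 in the control mice and 3.29-fold and 1.51-fold above it in the fiber-fed mice.

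Further prostanoid receptor genes were low. Of 6 on the list 3 were tested (Ptger1, Ptger3 and Tbxa2r), 0 passed by edgeR, 0 were at an unadjusted p under 0.05, and the 3 fold changes were positive with a median of 0.33. Ptger3, which encodes the inhibitory receptor EP3, stood at 1.29 and 9.24 CPM in the control mice and at 6.62 and 11.4 CPM in the fiber-fed mice. Ptger1 lay between 4.07 and 9.73 CPM. The thromboxane receptor gene Tbxa2r had 0 and 33 counts in the control libraries and 36 and 0 in the high-fiber libraries.

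Cysltr1 (NCBI gene 58861, chrX:106576509-106603679) encodes the high-affinity receptor for cysteinyl leukotriene D4. It stood at 190 and 223 CPM in the control mice and at 147 and 168 CPM in the fiber-fed mice. It varied least of the 8 among these 10 genes that had counts in every library, with the highest library 1.52-fold above the lowest, and both high-fiber libraries lay below both control libraries. Means were 206 ± 23.3 and 158 ± 15.2 CPM (SD, n = 2 each). Its log2 fold change was -0.39 ± 0.23 (unadjusted p = 0.131, adjusted p = 0.712, edgeR). The gene Gm5127 overlaps Cysltr1 and had 1285, 600, 1047 and 781 counts in the 4 libraries, so reads could be split or shared between them.

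The second cysteinyl leukotriene receptor gene, Cysltr2, stood at 50.3 and 66.1 CPM in the control mice and at 38.3 and 21.1 CPM in the fiber-fed mice. Both high-fiber libraries were again the lower ones, with a log2 fold change of -0.93 ± 0.38 (unadjusted p = 0.0466, adjusted p = 0.555, edgeR). An overlapping transcribed pseudogene, Gm9199, had 102 to 316 counts per library. Ltb4r1, which encodes the high-affinity receptor of leukotriene B4, was at 55.7 ± 6.97 and 59.6 ± 19.9 CPM (0.12 ± 0.33), and Ltb4r2 had 57 counts in control library 2 and 0 in the others. Of the 6 genes on this list 2 were tested and 0 passed by edgeR, with a median of -0.41.

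Among 7 genes of breakdown and transport, 6 were tested and 0 passed by edgeR, with a median of 0.67. At an unadjusted p under 0.05 by edgeR, 1, Abcc1, was higher, against 4.7% of all genes tested. Abcc1 encodes the transporter that exports leukotriene C4. It stood at 5.79 and 7.29 CPM in the control mice and at 26.3 and 16.9 CPM in the fiber-fed mice (1.77 ± 0.54, unadjusted p = 0.0148, adjusted p = 0.449, edgeR). Abcc4, which exports prostaglandin E2, was at 9.22 ± 5.36 and 19.8 ± 6.44 CPM (1.06 ± 0.58). Ptgr2, a prostaglandin reductase, was at 45.1 ± 6.88 and 32.6 ± 10.8 CPM. Hpgd, which inactivates prostaglandins, had 0 and 25 counts in the control libraries and 0 and 93 counts in the high-fiber libraries, all of them in the libraries numbered 2. Pla2g4a, Ptges, Ggt1, Cysltr2 and Abcc1 are the 5 of 32 tested genes on these 6 further lists at an unadjusted p under 0.05, or 15.6%, against 8.8% of all genes tested. Pla2g4a, Ptges and Ggt1 are among them and passed the filter only through the diet where they are high, so that share is not support for a change of these lists.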

How the data were processed

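The deposited table, made by the authors, holds whole-number read counts per NCBI gene identifier and library, not normalized. The submitters' processing notes list CASAVA 1.8.2, STAR 2.3.0 and mm10. How reads were counted per gene, and whether by strand, is not given in the sources used here. Per the labels' protocols, libraries were made with a SMARTer ultra-low-input kit. Symbols came from the RefSeq table of GRCm38.p6 (25275 of 27179 identifiers), and exon lengths from GENCODE M21. Genes without a symbol held 0.212% to 0.248% of the counts.

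Counts were fitted in R 4.3.3 with edgeR 4.0.16 (filterByExpr, TMM, estimateDisp, glmQLFit with legacy=FALSE, glmQLFTest, intercept and diet), with Benjamini-Hochberg adjustment over 11841 genes. The biological coefficient of variation (common value) was 0.607, and 2 degrees of freedom remained for the residuals. Each standard error is the fold change divided by the square root of F. CPM used TMM-scaled library sizes. The exon length was the union of all transcripts' exons. The fits were tested on simulated data.

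The genes, lists and tests were chosen with earlier results of these data known. All 10 genes are reported. Other lists described give each gene past the adjusted threshold by edgeR, else the 3 of highest mean CPM. Genes called by DESeq2 alone are not all named. Among the 14 ILC2 markers DESeq2 called 1, Kit, higher (DESeq2 adjusted p = 0.0409), against 1.88% of all genes it tested. A list of 8 RNA quality and reference genes was also looked up, gave 0 calls by edgeR and is not described. Further genes, among them those at an unadjusted p under 0.05 and those at 0 counts, were named after their values were seen. Alternatives were other scaling factors and filters, limma-voom (limma 3.58.1), legacy=TRUE, DESeq2 1.42.0, a replicate block and each library left out.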

Additional observations from a re-analysis of the deposited data

How the results depend on the processing

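Under each of the 13 alternatives 0 of the 10 genes passed the adjusted threshold. With the replicate block, Ptgs1 (2.13) and Ptgs2 (0.89), both higher on the high-fiber diet, joined Alox5 and Ptger4 at an unadjusted p under 0.05. The count at that level was 2 in the reported fit, 3 with limma-voom, which added Hpgds, and 4 with the replicate block. It ranged from 2 to 5 when each library was left out, with 5 without high-fiber library 2. The median log2 fold change over the genes tested was -0.84 with a minimum of 5 CPM in 2 libraries, which drops Ptgs1 and Alox5ap, and lay between -0.64 and -0.27 when each library was left out, lowest without high-fiber library 1. Reversed signs came from fits without 1 library: Ptgs1 (-2.36) and Ptgir (-0.64) without high-fiber library 1, and Alox5ap (-0.28) and Ptger2 (0.021) without control library 1. When each library was left out Ptgs1 ranged from -2.36 to 4.51, Ptgir from -0.64 to 0.86, Alox5ap from -0.28 to 6.52 (3 fits, since it did not pass the filter without high-fiber library 2, which held 20 of its counts) and Ptger2 from -1.35 to 0.021. The other 5 tested genes kept their sign throughout. Over all genes, calls numbered 4 in the reported fit, 0 without a filter on low counts, 9 with the 5 CPM minimum, 236 with DESeq2, 0 with limma-voom, 0 with legacy=TRUE, 0 with the replicate block and 0 to 1 when each library was left out. Fits without 1 library assume that the lone mouse of a diet varies like the mice of the other. Libraries of the same number share only a number: their deviations from the group means correlated at 0.041 across genes, which are not independent, and the labels state no pairing. Alox5ap and Ltc4s had at most 20 counts in any library, and Ltc4s was not tested.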

Other observations

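The lipoxygenase gene Alox8, named after its values were seen, had 108 and 1 counts in control libraries 1 and 2 and 245 and 0 counts in high-fiber libraries 1 and 2. Ptgs1 had 87, 7, 395 and 7 counts in the same order. Hpgd had 0, 25, 0 and 93 counts, and Alox5ap 0, 11, 1 and 20 counts. The first pair was high in the libraries numbered 1 and the other pair in the libraries numbered 2 on both diets. These genes were set side by side after their counts were seen. How many of all genes show such a pattern was not counted, so no link between them follows. Among phospholipase genes Pla2g6 had 456, 75, 214 and 51 counts. The thromboxane synthase gene Tbxas1 had 0 counts in both control libraries and 57 and 1 counts in high-fiber libraries 1 and 2.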
